A study of Mus musculus with 6 samples.

Results

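The SLAM family receptors Slamf1, Slamf6, Slamf7, Cd84, Ly9 and Cd48, with the SH2 domain adaptors Sh2d1a (SAP) and Sh2d2a (TSAd), were compared between antiviral CD4+ T cells sorted for much or little CD25, an interleukin-2 receptor subunit. The 8 genes were chosen by name, as molecules of T cell to B cell contact, with earlier results of these data known. Counts of members set beside shares of all genes are therefore a description. All 8 were found among the 15445 genes of the deposited counts. The cells were CD4+ Thy1.1+ T cells carrying 1 transgenic receptor, in C57BL/6 mice infected with lymphocytic choriomeningitis virus (LCMV), and were sorted from spleen on day 5 as CD25-high (3 libraries) or CD25-low (3 libraries). All 6 libraries share the infection, the day and the transgene. The labels do not name the transgene or the age and number of the mice, so a p-value covers only how far these libraries scatter, part of which may be technical.

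SLAM receptors are immunoglobulin-like proteins, most of which bind a copy of themselves on the facing cell. Tyrosine motifs in their tails bind SAP, which brings in the kinase Fyn and keeps phosphatases such as SHP-1 and SHP-2 away. T cells that lack SAP hold antigen-presenting B cells poorly and give little help in germinal centres, and follicular helper T cells are known for SAP, Slamf6 and Cd84.

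In short, transcripts of Slamf6, Cd84 and SAP were lower, by about 2-fold, in CD25-high cells, those of Slamf1 and Cd48 were higher, and those of Slamf7, Ly9 and TSAd overlapped between the groups. None of these 8 genes passed an adjusted p of 0.05 when the group was the only term (0 of 8, beside 0.655% of all 12987 tested genes, with 0.154% higher and 0.501% lower in CD25-high cells). When same-numbered libraries were paired by a replicate block, 5 of 8 passed, 2 higher and 3 lower (beside 4.63% of all genes, 1.73% higher and 2.9% lower). DESeq2 without a block, another count model, called 3 of 8, all lower (2.44% of the genes it tested). At an unadjusted p under 0.05 there were 5 members and 11.1% of all genes.

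The 6 receptor genes lie together on chromosome 1 within 364.5 kb (mm10), and the 4 whose libraries did not overlap between groups are neighbours there. Their promoter windows are shown because adjacent genes differed in opposite directions. They cover the 250 bases before the RefSeq start (GRCm38.p6, plus strand): chr1:171681742-171681991 for Cd48, chr1:171766882-171767131 for Slamf1, chr1:171839447-171839696 for Cd84 and chr1:171917212-171917461 for Slamf6. Capitals mark TGTGGT, the core bound by RUNX factors.
Cd48: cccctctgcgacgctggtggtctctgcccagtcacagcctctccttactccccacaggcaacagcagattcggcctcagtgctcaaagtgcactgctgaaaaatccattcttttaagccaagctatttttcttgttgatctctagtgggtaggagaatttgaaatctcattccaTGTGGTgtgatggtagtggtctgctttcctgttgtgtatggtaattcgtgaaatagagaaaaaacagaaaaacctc
Slamf1: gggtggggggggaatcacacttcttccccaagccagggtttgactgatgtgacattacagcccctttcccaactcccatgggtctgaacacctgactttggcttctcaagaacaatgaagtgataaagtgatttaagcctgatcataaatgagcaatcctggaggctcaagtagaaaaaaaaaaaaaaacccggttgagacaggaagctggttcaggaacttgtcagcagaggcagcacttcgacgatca
Cd84: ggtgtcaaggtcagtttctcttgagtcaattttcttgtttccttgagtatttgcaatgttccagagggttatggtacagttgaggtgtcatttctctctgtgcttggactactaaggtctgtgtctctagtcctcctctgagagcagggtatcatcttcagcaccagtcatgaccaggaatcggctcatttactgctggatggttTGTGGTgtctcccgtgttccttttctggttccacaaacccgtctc
Slamf6: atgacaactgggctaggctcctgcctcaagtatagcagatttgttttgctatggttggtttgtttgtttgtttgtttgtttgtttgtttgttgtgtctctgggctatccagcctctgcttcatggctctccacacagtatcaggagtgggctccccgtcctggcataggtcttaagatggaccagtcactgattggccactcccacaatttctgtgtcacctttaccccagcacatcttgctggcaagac

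RefSeq promoters were matched for 5 of the 8 genes, the 4 above and Slamf7. Searched on both strands of the 250 bases, TTCNNNGAA (a STAT site, 7.02% of 32851 mouse promoters), the motif of IRF factors and Blimp-1 (2.98%), ATCAAAG (TCF1 and LEF1, 3.21%) and CAGCTG (an E-box, 13% of promoters) had 0 matches in these 5 windows. TGTGGT, added after the other 4 motifs had no match, was found in 14% of all promoters, and in the windows of Cd84 (45 bases before the start) and Cd48 (76 bases before it), 1 gene of each direction. The windows of Slamf1, Slamf6, Cd84 and Cd48 had GC contents of 47.2%, 48.4%, 46.8% and 46.0%.

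Il2ra, which encodes CD25 and checks the sort, had CPM values (counts scaled to the TMM-adjusted library size) of 1536, 432 and 666 in the CD25-high and 20.7, 29.4 and 35.7 in the CD25-low libraries, listed here and below in the order of their numbers, 1 to 3. Totals ran from 16787233 to 23567066 counts a library, and the 8 members had 390 to 6681 counts in each. Mitochondrial genes took 38.16%, 35.15% and 32.04% of the counts in CD25-high and 38.27%, 35.13% and 34.48% in CD25-low libraries, most in those numbered 1. The libraries numbered 1 stood apart: with the group as a term, 7.17% of all genes differed between them and the others at an adjusted p of 0.05, among the 8 members only Cd48 (log2 difference -0.76, adjusted p 0.033 by edgeR's quasi-likelihood test). All 11 T cell defining genes fixed for the check were present and summed to 3459 to 3656 CPM in the CD25-high against 3575 to 4657 CPM in the CD25-low libraries. Of these 11, 2 were lower in CD25-high cells with the block and 0 higher, beside 2.9% and 1.73% of all genes. The 2 were Cd3d and Cd3g, subunits of the receptor complex (adjusted p 0.0134 and 0.0135 by edgeR, and 0.204 and 0.279 without the block). The subunits Cd3e and Cd247 did not pass (log2 fold changes -0.14 and 0.03, adjusted p by edgeR 0.737 and 0.997 blocked), and 3 of the 11 genes were above 0.

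SLAM receptors are also made by B cells, macrophages and NK cells, so genes of other splenic cells were read beside them. Of 9 B cell genes, 5 had a row, with sums of 3.95 to 18.1 CPM in the CD25-high against 12.6 to 18.1 CPM in the CD25-low libraries, led by Cd22 and Cr2, and Cd79a, Ms4a1, Pax5 and Blk had no row. Of 12 myeloid genes, 6 had a row and summed to 26.8 to 87.7 CPM against 13.0 to 42.4 CPM. The gene with the highest mean was Itgam, which encodes an integrin chain and shares 3450 exonic bases with Gm49368 on its strand (21.1, 77.2 and 71.6 CPM in the CD25-high against 5.03, 26.3 and 32.1 CPM in the CD25-low libraries). Cd68 had the next highest mean (2.83, 7.72 and 5.13 against 5.20, 5.66 and 8.56 CPM, log2 fold change -0.31) and stood above Itgam in CD25-low library 1. Lyz2 was at or below 0.724 CPM, Fcgr3 was at 0 in all CD25-high libraries and at or below 0.681 CPM in the others, and Adgre1, C1qa, C1qb, S100a8, Cd14 and Spi1 had no row. NK and CD8 T cell genes (5 of 8 with a row) summed to 13.95 to 31.5 against 7.99 to 12.1 CPM, led by Klrk1 and Cd8b1, while Ncr1, Cd8a and Klre1 had no row. The NK cell genes Klrb1c (0, 0.106 and 0 against 0.219, 2.09 and 0.786 CPM) and Klrd1 (0.340, 0.852 and 0.338 against 0.492, 2.94 and 1.41 CPM) had lower means in CD25-high cells. Dendritic cell genes (4 of 8, led by Zbtb46 and Ccr9) summed to 14.7 to 28.2 against 8.48 to 22.4 CPM, plasma cell genes (3 of 5, led by Sdc1 and Jchain) to 1.28 to 5.33 against 0.809 to 1.97 CPM, and erythroid and platelet genes (2 of 8, Alas2 and Ppbp) to 2.27 to 2.99 against 2.07 to 4.10 CPM. Immediate early and heat-shock genes (10 of 12) summed to 157 to 206 against 188 to 254 CPM. With the block, Itgam and Klrk1 were higher in CD25-high cells (edgeR adjusted p 0.0013 and 0.035, and 0.433 and 0.118 without it). Of the immediate early and heat-shock genes, Egr1 alone passed with it, at 58.3, 16.4 and 30.8 against 115, 77.1 and 106.8 CPM. Egr1 was lower with no overlap (log2 fold change -1.50, edgeR adjusted p 0.000992, and 0.156 without the block), the direction of Slamf6, Cd84 and Sh2d1a. Fos was also lower with no overlap (-0.59), but Jun and Dusp1 were higher with none (1.54 and 0.51, edgeR adjusted p 0.0631 and 0.355 blocked). Of the 10 tested genes of this list 6 were above 0, with a median log2 fold change of 0.16. The myeloid sum overlapped between the groups but was higher in CD25-high cells in each same-numbered pair, and the NK and CD8 sum did not overlap. Both sums, though not every gene in them, moved in the direction of Slamf1 and Cd48. The myeloid sum differed mainly through Itgam. The NK and CD8 sum differed mainly through Klrk1 (21.2, 9.16 and 11.3 CPM in the CD25-high against 2.90, 4.47 and 4.67 CPM in the CD25-low libraries). The means of the other genes in each list went both ways. The part of these genes, Egr1 included, in the members' results was not tested.

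**Figure D1:**
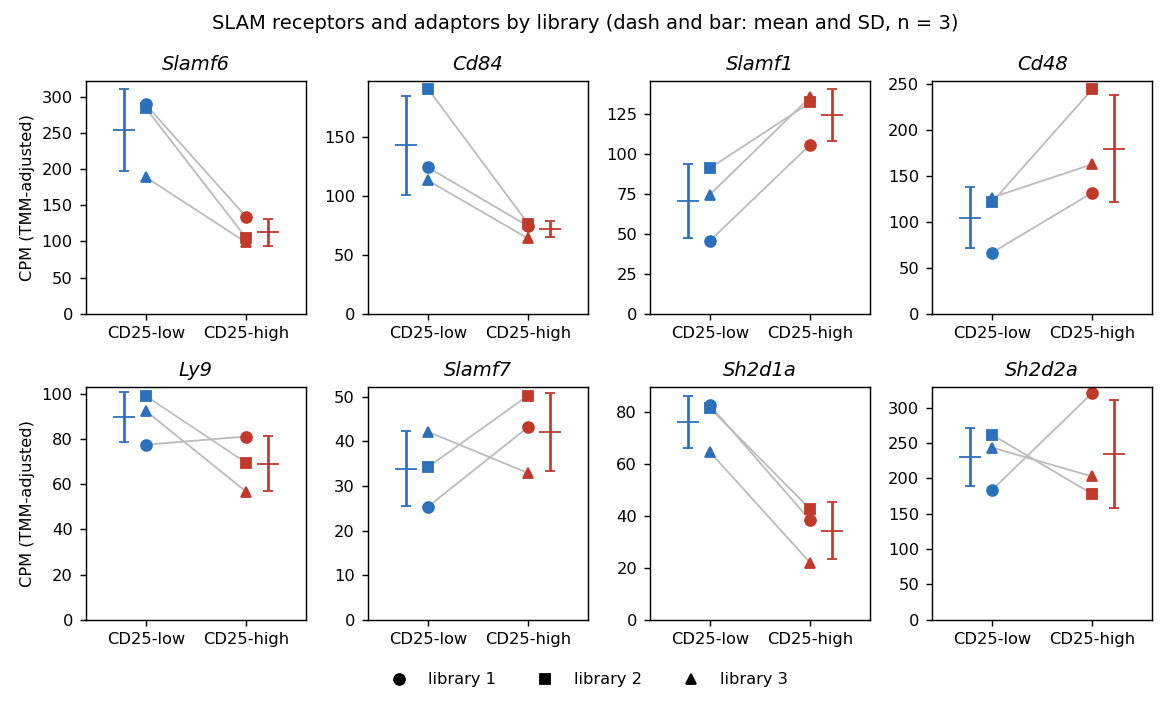
CPM (vertical axes, from 0) of each gene in the 3 CD25-low (blue) and 3 CD25-high (red) libraries, with grey lines joining same-numbered libraries and dashes and bars for mean and SD. For Slamf6, Cd84 and Sh2d1a every CD25-high library lies below every CD25-low one, for Slamf1 and Cd48 above, and the other 3 genes overlap.

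Slamf6 (Ly108), a self-binding receptor that adds to T cell and B cell adhesion when SAP is present and inhibits it when SAP is missing, stood at 134.2, 105 and 98.6 CPM in the CD25-high libraries. The CD25-low libraries held 289.4, 284.5 and 188.9 CPM of it. The groups did not overlap, with CD25-low library 3 the closest to the CD25-high libraries. The means were 113 ± 18.9 and 254 ± 56.6 CPM (SD, n = 3 each). The log2 fold change, CD25-high relative to CD25-low, was -1.17 ± 0.23 (SE), or 2.26-fold lower, with an edgeR adjusted p of 0.0557, and 0.000923 with the replicate block. In bulk RNA, fewer expressing cells and less RNA per cell cannot be told apart. Over 21 other settings the adjusted p ran from 2.2e-09 to 0.336. Of the unblocked fits that left out 1 library, only that without CD25-high library 1 called the gene (0.0376), and the others gave 0.0681 to 0.336. Slamf6 (ENSMUSG00000015314) occupies chromosome 1, plus strand, 171917515 to 171953170 (mm10).

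Cd84, another self-binding receptor, needed for long contacts of T and B cells, had 74.2, 76.2 and 63.7 CPM in the CD25-high against 124, 191 and 113 CPM in the CD25-low libraries. All CD25-high values were below all CD25-low values, and CD25-low library 2 was the highest of the 6. Its log2 fold change was -0.998 ± 0.238, with an edgeR adjusted p of 0.12, and 0.00586 with the block (2.31e-05 to 0.449 over the other settings). With the block and without pair 2 it did not pass (0.0594). Cd84 (ENSMUSG00000038147) spans 171839697 to 171890718 on the plus strand.

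Slamf1 (CD150), a self-binding receptor known as a costimulator of T cells, had 106, 132.5 and 135.9 CPM in the CD25-high against 45.7, 91.2 and 74.7 CPM in the CD25-low libraries. CD25-low library 1 was the lowest, and the groups did not overlap. The log2 fold change was 0.82 ± 0.26 (1.77-fold), with an edgeR adjusted p of 0.267, and 0.0134 with the block (0.000244 to 0.574 over the other settings). Without pair 1 the blocked fit gave 0.0597. Slamf1 (ENSMUSG00000015316) spans 171767127 to 171801184 on the plus strand.

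Cd48, a receptor held in the membrane by a lipid anchor, which binds Cd2 and Cd244a and has no signalling tail, had 131.5, 244 and 162.4 CPM in the CD25-high against 66.3, 121 and 126.2 CPM in the CD25-low libraries. The gap between the groups was small (CD25-high library 1 against CD25-low library 3), and both libraries numbered 1 were the lowest of their group. The log2 fold change was 0.78 ± 0.30 (1.72-fold), with an edgeR adjusted p of 0.364, and 0.0195 with the block (0.00106 to 0.607 over the other settings). With the block it did not pass without pair 1 (0.0958) or pair 2 (0.126), and without CD25-high library 2 the unblocked log2 fold change was 0.50. Cd48 (ENSMUSG00000015355) spans 171682009 to 171705258 on the plus strand.

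Ly9 (CD229, also self-binding) had 81.2, 69.6 and 56.8 CPM in the CD25-high against 77.5, 99.2 and 92.5 CPM in the CD25-low libraries. CD25-high library 1 lay above CD25-low library 1, and the other pairs went the opposite way. Its log2 fold change was -0.38 (95% interval -0.85 to 0.10, adjusted p by edgeR 0.567, or 0.317 blocked). Ly9 (ENSMUSG00000004707) spans 171588624 to 171607410 on the minus strand.

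Slamf7 (CRACC), best known from NK and plasma cells, where it signals through the SAP relative EAT-2, had 43.2, 50.3 and 32.9 CPM in the CD25-high against 25.3, 34.2 and 42.2 CPM in the CD25-low libraries. Pairs 1 and 2 were higher and pair 3 lower in CD25-high cells. The log2 fold change was 0.31 (95% interval -0.28 to 0.90, adjusted p by edgeR 0.73, or 0.538 blocked), an interval that holds 0 and differences up to that upper bound. Slamf7 (ENSMUSG00000038179) spans 171632403 to 171653035 on the minus strand, and 423 of its exonic bases overlap Gm37787 on the other strand, which has no row. The counting's strand setting is not given in the sources used here, so its count is uncertain to that extent.

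Sh2d1a, which encodes SAP, had 38.4, 42.7 and 22 CPM in the CD25-high against 82.7, 81.6 and 64.7 CPM in the CD25-low libraries. All 3 pairs were lower in CD25-high cells, with log2 differences of -1.11, -0.93 and -1.56, and the groups did not overlap. The log2 fold change was -1.15 ± 0.27 (2.22-fold lower), with an edgeR adjusted p of 0.118, and 0.00316 with the block (3.76e-06 to 0.387 over the other settings). With the block it passed whichever pair was left out (highest 0.018), as did Slamf6 (highest 0.00974). Sh2d1a (ENSMUSG00000005696) occupies chromosome X, plus strand, 42502453 to 42529330. Of its exonic bases, 1465 overlap Tenm1 on the other strand, whose own count was 4.3% to 12.8% of the Sh2d1a count.

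Sh2d2a encodes TSAd, an adaptor induced on T cell activation that binds the kinase Lck. It had 321, 178 and 202.8 CPM in the CD25-high against 183.6, 261.9 and 243.8 CPM in the CD25-low libraries. CD25-high library 1 was the highest of the 6 and CD25-high library 2 the lowest, so the groups overlapped fully. The log2 fold change was 0.03 (95% interval -0.54 to 0.59, adjusted p by edgeR 0.983, or 0.988 blocked), and without CD25-high library 1 it was -0.27. Sh2d2a (ENSMUSG00000028071) occupies chromosome 3, plus strand, 87846755 to 87855722.

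**Figure D2:**
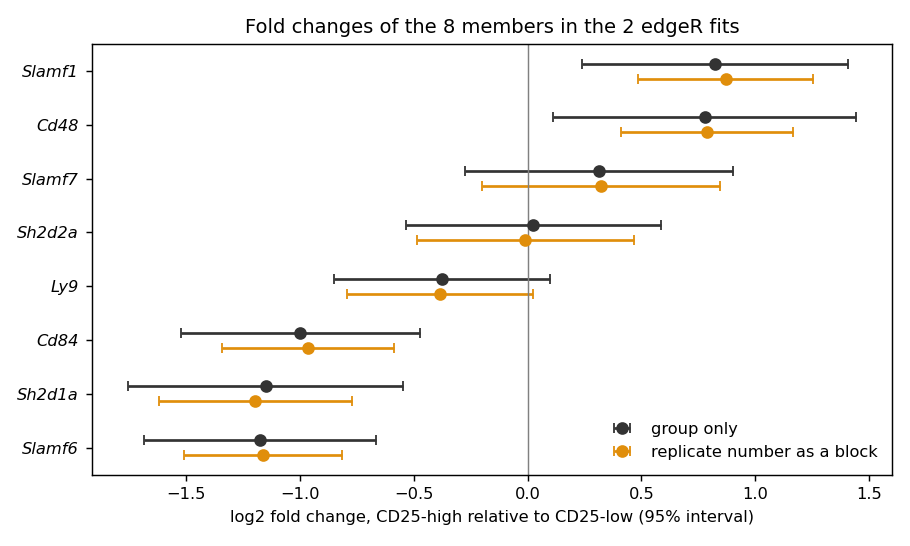
Log2 fold changes (horizontal axis, CD25-high relative to CD25-low) of the 8 genes with 95% intervals, fitted with the group only (black) or with the replicate number as a block (orange). Slamf6, Sh2d1a and Cd84 lie near -1 and Slamf1 and Cd48 near 0.8 in both fits, and the blocked intervals are narrower.

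As a list, 5 of the 8 genes had no overlap between the groups, 2 higher and 3 lower in CD25-high libraries. Over all tested genes 16.9% had none, 7.41% higher and 9.54% lower. The same 5 genes, Slamf1, Cd48, Slamf6, Cd84 and Sh2d1a, had 1 direction in all 3 same-numbered pairs, which their lack of overlap already fixes. Slamf7, Ly9 and Sh2d2a did not, and 40.6% of all genes did. The median log2 fold change of the 8 was -0.17, against 0.01 over all tested genes, with 4 of 8 above 0. The CPM ratio of Slamf6 to Slamf1 was 1.27, 0.793 and 0.726 in CD25-high and 6.33, 3.12 and 2.53 in CD25-low libraries. That of Sh2d1a to Sh2d2a was 0.12, 0.24 and 0.108 against 0.45, 0.312 and 0.265. These ratios were picked after the values were seen and carry no test, and their size depends on gene length.

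Per kilobase of exon, Cd48 was the most abundant member in both groups, with 151 ± 48.9 CPM per kb in CD25-high and 87.9 ± 27.9 in CD25-low libraries (SD, n = 3), followed by Sh2d2a (39.4 ± 12.9 and 38.7 ± 6.90). In CD25-high cells the levels then ran Ly9 (20.9 ± 3.69), Slamf1 (20.3 ± 2.66), Cd84 (11.4 ± 1.07), Slamf6 (10.4 ± 1.75), Slamf7 (9.20 ± 1.91) and Sh2d1a (6.24 ± 1.98 CPM per kb). In CD25-low cells they ran Ly9 (27.1 ± 3.35), Slamf6 (23.5 ± 5.23), Cd84 (22.7 ± 6.72), Sh2d1a (13.9 ± 1.84), Slamf1 (11.5 ± 3.74) and Slamf7 (7.40 ± 1.84 CPM per kb). Slamf1 thus stood at position 4 of 8 in CD25-high and 7 of 8 in CD25-low cells, and Slamf6 at positions 6 and 4. Neighbours in the order whose libraries did not overlap were Cd48 and Sh2d2a, Sh2d2a and Ly9 (both groups), Slamf1 and Cd84 (CD25-high) and Cd84 and Sh2d1a (CD25-low), and the other neighbours overlapped. Of the summed level of the 6 receptors per kb, Cd48 took 59.5%, 73.1% and 67.5% in CD25-high and 40.2%, 48.3% and 55.6% in CD25-low libraries. Slamf6 took 6.66%, 3.46% and 4.50% against 19.3%, 12.5% and 9.14%.

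**Figure D3:**
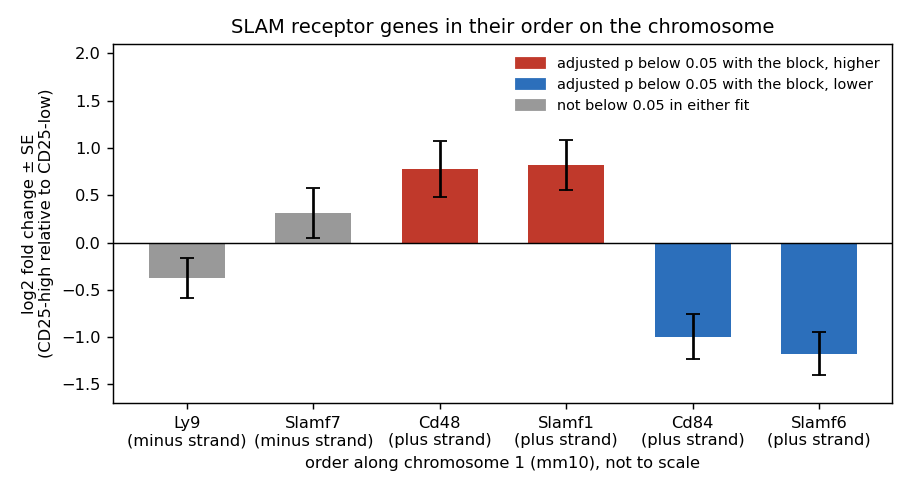
Log2 fold change ± SE (vertical axis, CD25-high relative to CD25-low, group-only fit) of the 6 receptor genes in their order along chromosome 1, coloured by the call with the replicate block. Cd48 and Slamf1, above 0, stand next to Cd84 and Slamf6, below 0, while Ly9 and Slamf7 passed in neither fit.

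Along chromosome 1 the receptor genes are ordered Ly9, Slamf7, Cd48, Slamf1, Cd84 and Slamf6, from 171588624 to 171953170. Slamf1, higher in CD25-high cells with the block, ends 38.5 kb before Cd84, which was lower with it. Cd48 and Slamf1 are 61.9 kb apart and Cd84 and Slamf6 26.8 kb, and the genes of each of these pairs shared a direction. Of the other tested genes, 1 lies between receptors and 3 on each side were read as flanks, a choice made after the members' values were seen. These 7 had log2 fold changes of -1.25 to 0.97, and 0 of 7 passed (lowest adjusted p by edgeR 0.401, or 0.167 blocked) or separated the groups. Both lowest values belong to Gm10521, which lies between Cd84 and Slamf6. Its log2 fold change, -1.05 ± 0.43 (SE), had the direction and about the size of theirs.

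Among other molecules of SLAM signalling, Fyn, the kinase that SAP recruits, fell in CD25-high cells. It had 109, 134.2 and 131.6 CPM in the CD25-high against 283.7, 288.4 and 264.2 CPM in the CD25-low libraries, with no overlap between the groups. Its log2 fold change was -1.16 ± 0.18 (edgeR adjusted p 0.0234, 5.88e-10 to 0.148 over 21 other settings). It lost the call without CD25-high library 2 or 3 (0.0881 and 0.148) or CD25-low library 1, 2 or 3 (0.0549, 0.122 and 0.083), and kept it with the block without any 1 pair (highest 0.00918). Fyn was 1 of 17 tested kinases, phosphatases and adaptors downstream of SLAM receptors, SAP or TSAd, of which 0 rose and 16 did not pass (beside 0.154% of all genes higher and 0.501% lower). With the block 4 fell and 0 rose, beside 2.9% of all genes lower and 1.73% higher. The 4 were Fyn, the phospholipase Plcg1 (log2 fold change -0.85, adjusted p by edgeR 0.244, or 0.0178 blocked), the kinase Prkcq (-0.55, 0.364, and 0.0451) and Ptpn11, which encodes SHP-2 (-0.65, 0.207, and 0.0324). Each of the last 3 passed in 1 of 3 blocked fits that leave out a pair. Plcg1 shares 379 exonic bases with Zhx3 and 248 with Gm27206 on the other strand. The median log2 fold change of the 17 genes was -0.43, with 1 of 17 above 0, where 50.8% of all genes were above 0.

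The relatives Cd244a, Slamf8, Slamf9, Sh2d1b1 and Sh2d1b2 (the last pair encoding EAT-2 adaptors) have no row in the counts. Cd2, the adhesion receptor that binds Cd48, had 134.2, 126.2 and 139.5 CPM in the CD25-high against 155.4, 222.2 and 158.2 CPM in the CD25-low libraries. The groups did not overlap, and its log2 fold change of -0.42 ± 0.20 passed neither alone (adjusted p 0.487, edgeR) nor blocked (0.231).

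Of 13 tested surface and secreted molecules of T cell to B cell contact, Btla, an inhibitory receptor, fell (84.8, 114.7 and 119.9 against 334.3, 357.6 and 294.4 CPM, log2 fold change -1.63 ± 0.21, edgeR adjusted p 0.00715), 0 rose and 12 did not pass (beside 0.501% of all genes lower and 0.154% higher). It lost the call without CD25-low library 2 (0.0504, the highest of its other settings, which began at 4.71e-17). With the block 3 fell, beside 2.9% of all genes: Btla, the follicle-homing receptor Cxcr5 (11.9, 1.33 and 0.902 against 67.9, 30.1 and 44.0 CPM, log2 fold change -3.33 ± 0.82, edgeR adjusted p 0.127, or 0.000269 blocked) and the helper cytokine Il21 (92.0, 16.1 and 34.5 against 136.6, 39.5 and 53.0 CPM, -0.68 ± 0.60, 0.738, and 0.0335). Without CD25-high library 1, where Cxcr5 was highest of its group, its log2 fold change was -5.39 and it was called without the block (0.00064). It was also called by limma voom (-4.18, adjusted p 0.0317), and over 21 other settings its adjusted p ran from 1.14e-17 to 0.376. Il21 was highest in the library numbered 1 of each group, and its unblocked log2 fold change was -1.59 without that of CD25-high and 0.04 without that of CD25-low. With the block Il21 did not pass without pair 1 (0.0686) or pair 2 (0.274). Exons of Cxcr5 and Il21 overlap Bcl9l (110 bases) and Gm12534 (469 bases) on the other strand. The list's median log2 fold change was -0.43, and 2 of 13 were above 0.

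**Figure D4:**
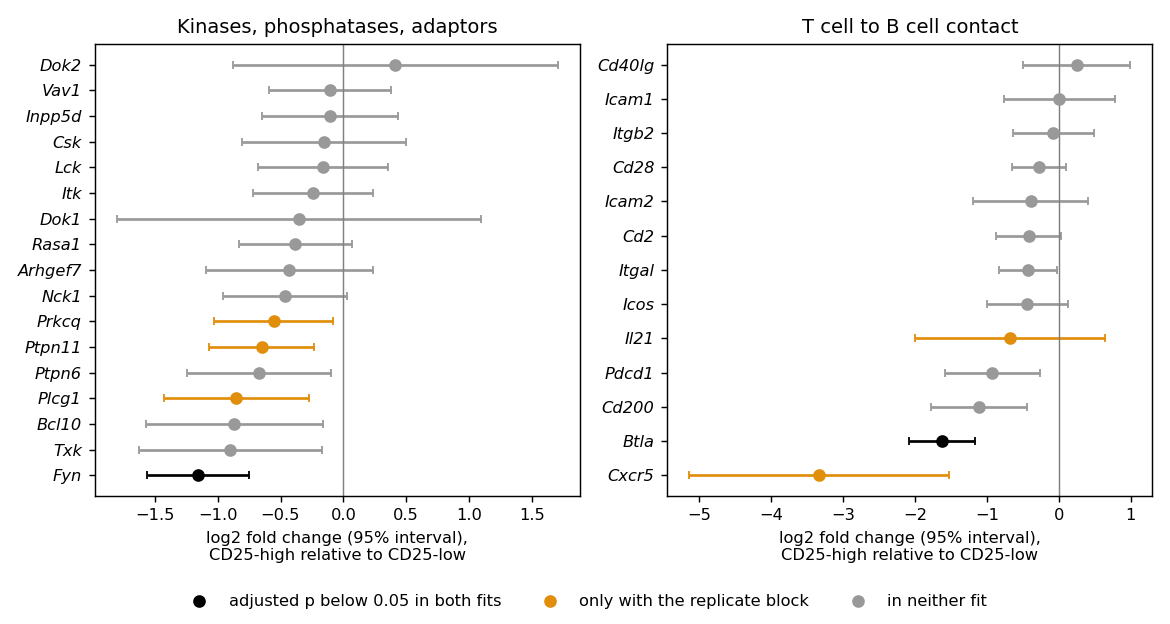
Log2 fold changes with 95% intervals (horizontal axes, group-only fit) of 17 downstream molecules and 13 contact molecules, coloured by the fit in which they passed. Fyn and Btla passed in both fits, and most points lie below 0.

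Genes most like 3 members in pattern were read from the root mean square difference of log2 CPM over the 6 libraries, after centring each gene, among 8071 protein-coding genes with a mean of at least 5 CPM. Nearest to Slamf6 were Ankrd12 (0.118), Stat2 (0.147) and Sp110 (0.177). Stat2 had 28.5, 24.3 and 21.7 CPM in the CD25-high against 70.5, 61.6 and 54.3 CPM in the CD25-low libraries, so that, as for Slamf6, library 1 was highest and library 3 lowest in both groups. Nearest to Sh2d1a were Ddx58 (0.111), Hivep2 (0.149) and Syt11 (0.165), and CD25-high library 3 was the lowest for each of the 3. Nearest to Slamf7 were Ube4a (0.082), Tshz1 (0.122) and Fmnl1 (0.127), none of which passed (edgeR adjusted p 0.559 to 0.782). Of the 9 genes, Stat2 and Hivep2 passed (edgeR adjusted p 0.0273 and 0.0398), and both lost the call in 5 of 6 fits that left out 1 library, all but that without CD25-high library 1. Likeness in these 6 libraries is a description and carries no test.

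**Figure D5:**
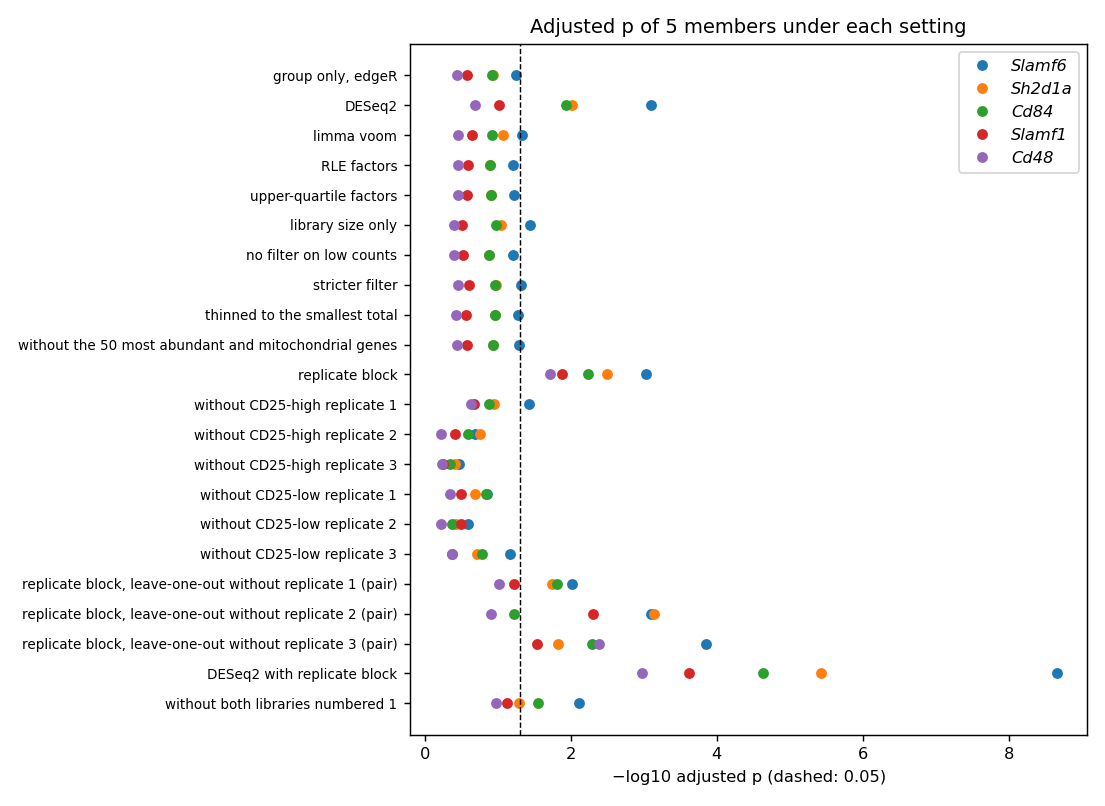
Adjusted p on a −log10 scale (horizontal axis, dashed line at 0.05) of the 5 members without overlap, for the group-only fit and 21 other settings (rows). All 5 pass the line with the replicate block, edgeR or DESeq2, and most points lie left of it in fits without a block.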

How the data were processed

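RNA was measured in 6 libraries, 3 CD25-high and 3 CD25-low. The deposited values are raw read counts per Ensembl gene, in 15445 rows with a smallest total of 10. Per the labels' protocols, a NuGEN Ovation v2 kit amplified the RNA. The submitters' processing notes list Novoalign and DESeq2, and mm10 beside hg19, with no version or role. Counter, annotation, strand setting and multiple matches: not given in the sources used here. GENCODE M21 (GRCm38, the assembly of mm10) named 15169 identifiers and gave coordinates and exon lengths, the union over isoforms.

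Counts were tested across all genes with edgeR 4.0.16 in R 4.3.3 (quasi-likelihood F test, TMM factors, filterByExpr with minimum count 10 and minimum total 15, group as the only term, Benjamini-Hochberg adjustment, threshold 0.05), and the fit was tested on simulated data. Each SE is the size of the log2 fold change divided by the root of its F, and intervals are 95%. Alternatives used DESeq2 1.42.0, limma 3.58.1 (voom), other factors, filters and depth, and left-out libraries. A replicate block used the labels' numbers: over the 2000 most variable genes, libraries with the same number deviated together from their group means, with correlations of 0.34, 0.19 and 0.16 (others -0.26 to 0.13), each above the limit of 0.1, so the pairing comes from the data. CD25-high library 2 with CD25-low library 3 (0.13) also exceeded that limit. The check thus set number 1 apart clearly, and numbers 2 and 3 only narrowly. The blocked p-values rest on this pairing. All replicates differed by more than counting noise (chi-square over its degrees of freedom, 27.8 to 98.4).

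The members, gene lists and the rule for named genes were chosen with earlier results of these data known. Named are all 8 members and Il2ra. Of the lists of SLAM relatives, downstream signalling and T cell to B cell contact, up to 3 called genes per direction are named, or the 2 with the smallest p. Also named are the 2 most abundant genes of each list of other cells, and the 3 genes nearest to Slamf6, Slamf7 and Sh2d1a in log2 CPM (prior count 2), predicted genes and receptor segments left out. Genes counted only with the block, and Cd3e, Cd247, Lyz2, Fcgr3, Klrb1c, Klrd1, Jun, Dusp1, Fos and Gm10521, were named after their values were seen. A listed B cell gene is not reported here.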

Additional observations from a re-analysis of the deposited data

How the results depend on the processing

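Over 21 other settings and 8 members, 131 of 168 fold changes kept their direction and side of the threshold, 30 kept their direction and passed it, and 7, all of Sh2d2a, changed sign. Sh2d2a had log2 fold changes of -0.011 with limma voom, -0.01 with the replicate block, -0.001 with DESeq2 and the block, -0.27 and -0.113 without CD25-high or CD25-low library 1 (range without any 1 library -0.27 to 0.199), -0.414 with the block without pair 1, and -0.412 without both libraries numbered 1. Il21 changed sign without CD25-low library 1 (0.037; range without any 1 library -1.594 to 0.037). The cause was not tested.

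The count of members called, 0 with the group only, was 3 with DESeq2, 1 with limma voom, library size only or a stricter filter (mean count 10, and 1 CPM in 3 libraries, at the least), and 0 with RLE or upper-quartile factors, no filter, thinned counts, or the 50 most abundant and mitochondrial genes removed. It was 5 with the replicate block and 0 to 1 without 1 library. With the block and without pair 1, 2 or 3 it was 3, 3 or 5. Further alternatives were added after the data were seen: DESeq2 with the block called 5 members, and edgeR without both libraries numbered 1 called 2 (Slamf6 and Cd84) of 380 genes. Of all genes 85 were called, 376 with DESeq2, 601 with the block, 1064 with DESeq2 and the block, 22 to 130 without 1 library, and 461, 486 or 536 with the block without pair 1, 2 or 3. The fits without a CD25-high library called 130, 38 and 23 genes (libraries 1 to 3), those without a CD25-low library 49, 22 and 33. Other factors moved the median of all genes by at most 0.02 on the log2 scale. With 3 libraries a group, small differences are not detectable.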
